A study of Homo sapiens with 4 samples.

Results

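The sirtuins are a family of 7 human genes, SIRT1 to SIRT7, whose enzymes remove acetyl and other acyl groups from lysines. The authors' deposited table assigns 20 of its 91107 distinct H3K27ac regions to these genes, chosen as every line whose gene is 1 of the 7 names, and all 7 genes have at least 1 region. H3K27ac, histone H3 acetylated at a lysine of its tail, marks active promoters and enhancers and was profiled by immunoprecipitating chromatin and sequencing the DNA in A375 cells, a human melanoma line in long use. Per the labels, 2 libraries are from A375 with isopropanol alone, the vehicle, and 2 from A375 with 1 mM octanoate, a medium-chain fatty acid, both for 48 hours in DMEM with serum and with no other agent or genetic change named. The table holds 1 comparison between these groups, with no value per library and no named numerator, so fold changes are described as positive or negative. Whether the 2 libraries of a group came from separate cultures is not stated, so the standard errors may measure technical spread alone.

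Sirtuins spend NAD+, the oxidised form of a redox cofactor, in each deacylation and release nicotinamide, which links their activity to the metabolic state of the cell. SIRT1, SIRT6 and SIRT7 act mainly in the nucleus on histones and transcription factors, SIRT2 acts mainly in the cytosol, and SIRT3, SIRT4 and SIRT5 act in mitochondria, where fatty acids are oxidised to acetyl-CoA. The comparison made here sets the nuclear members against the mitochondrial ones, at the chromatin of the genes and not at the enzymes.

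The DNA before the gene starts is shown first because 6 of the 7 regions nearest to the starts extend over it. In addition, 3 of the members share it with another protein-coding gene. RefSeq (GRCh38.p14, the build the submitters' processing notes call hg38) gave promoter windows for 6 of the 7 genes, 9 windows in all, and no window for SIRT7. SIRT6, SIRT2 and SIRT3 each share a promoter with a protein-coding gene that runs the other way. The whole stretch between both starts is given for these 3. A noncoding RNA gene, LOC105374937, overlaps both SIRT5 windows. For SIRT1 and SIRT4 the 250 bases before the start are given. Each sequence runs 5′ to 3′ in the direction of the sirtuin, and capitals mark matches to any of the 7 motifs searched, on either strand.

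SIRT1, chr10:67884406-67884655, plus strand: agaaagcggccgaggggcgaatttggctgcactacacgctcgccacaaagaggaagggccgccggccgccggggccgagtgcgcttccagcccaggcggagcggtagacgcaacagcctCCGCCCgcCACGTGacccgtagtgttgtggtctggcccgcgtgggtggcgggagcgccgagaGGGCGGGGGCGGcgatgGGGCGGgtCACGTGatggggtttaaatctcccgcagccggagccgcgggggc
SIRT6 to ANKRD24, chr19:4182564-4182688, minus strand: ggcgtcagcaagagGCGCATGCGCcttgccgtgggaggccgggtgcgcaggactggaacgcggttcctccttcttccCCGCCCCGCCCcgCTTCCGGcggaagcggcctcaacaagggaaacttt
SIRT2 to NFKBIB, chr19:38899619-38899665, minus strand: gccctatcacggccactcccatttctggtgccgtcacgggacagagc
SIRT3 to PSMD13, chr11:236932-236975, minus strand: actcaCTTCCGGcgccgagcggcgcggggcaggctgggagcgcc
SIRT4, chr12:120302071-120302320, plus strand: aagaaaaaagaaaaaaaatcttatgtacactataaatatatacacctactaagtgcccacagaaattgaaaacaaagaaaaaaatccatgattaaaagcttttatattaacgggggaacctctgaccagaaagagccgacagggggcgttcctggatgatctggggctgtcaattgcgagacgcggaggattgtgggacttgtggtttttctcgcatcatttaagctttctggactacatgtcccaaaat

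The motifs were the E-box CACGTG, the GC box GGGCGG, the NF-Y sequence CCAAT, the ETS family sequence CCGGAAG, the cyclic AMP response element TGACGTCA (CRE), the AP-1 sequence TGACTCA and the palindrome bound by NRF1, which is the first run of capitals in the SIRT6 stretch. They were searched in the 250 bases before each start, and the same stretch of all 35116 RefSeq windows gave the background. That background was not matched for content of G and C. Its shares are of windows, while sirtuins are counted by gene. SIRT1 held 2 E-boxes, 123 and 44 bases before its start counted from the motif's first base, where 6.34% of all windows held at least 1. It also held 4 GC boxes, of which 2 abut; GC boxes were found before 3 sirtuins, SIRT1, SIRT5 and SIRT6, and in 42.6% of all windows. In SIRT6, 2 GC boxes overlap by a base. The NRF1 sequence is named for a factor known to act on genes of mitochondrial function. It stood before SIRT6 and SIRT5, a nuclear and a mitochondrial member, in 3 of the 9 sirtuin windows and in 1.03% of all windows.

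SIRT5, chr6:13574451-13574480, plus strand: ggtccgcggtGCGCATGCGCggcccggcct
SIRT4 at its other start, chr12:120292127-120292156, plus strand: gcaaatcaacgTGACGTCAcagagatgact

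These 30-base stretches show the NRF1 match of SIRT5, which both of its RefSeq windows contain, and the CRE match that stands 51 bases before a second SIRT4 start. The CRE was found in 1.65% of all windows and before no other sirtuin. The ETS sequence was found before SIRT6 and SIRT3 (8.52% of all windows), CCAAT before SIRT6 and SIRT2 outside the printed stretches (32.0%), and the AP-1 sequence before none of the 6 genes (4.20%). The SIRT4 window printed above held none of the 7 sequences. It was also the poorest in G and C, with 39.6% against a median of 58% over all windows. The other sirtuin windows ran from 47.2% at the other SIRT4 start to 78% at a SIRT5 start. Before SIRT1 the share was 72%, and before the SIRT6 starts 65.6% and 70.4%. A match is a description of these letters and shows no binding.

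Around these starts, all 7 sirtuins carried a region of H3K27ac. In the authors' deposited table the region lay over the start, with a distance of 0, for every member but SIRT7, whose nearest region was 14 bases away. These 7 regions, 1 per gene, all had a positive fold change in the authors' deposited table, on the log2 scale from 0.23 for SIRT3 to 0.55 for SIRT6, with a median of 0.35, a ratio of 1.28. Positive values were general, since 97.7% of the 10642 regions at gene starts were positive in the authors' deposited table, with a median of 0.36.

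None of the 20 sirtuin regions passed an adjusted p-value under 0.05 in the authors' deposited table (DESeq2, Benjamini-Hochberg adjustment). The authors computed adjusted p-values for 9 of the 20, which are those with a mean level above 18.4, and the smallest was 0.24 at SIRT6. The background share was 1.67% among the 36436 regions that have an adjusted p-value, and 0.860% at starts, so a count of 0 among 9 regions lies near it. At an unadjusted p-value under 0.05 the count was 1 of 9, the SIRT6 region, where 17.9% of the 36436 regions were positive and under 0.05 in the authors' deposited table. With the standard errors given for the 7 regions near the starts, a call would have needed a log2 fold change of 0.83 to 1.08, a ratio of 1.78 to 2.12. An observed difference below a region's own value would not have been called. This is a cutoff on the estimate and sets no limit on the true difference.

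**Figure D1:**
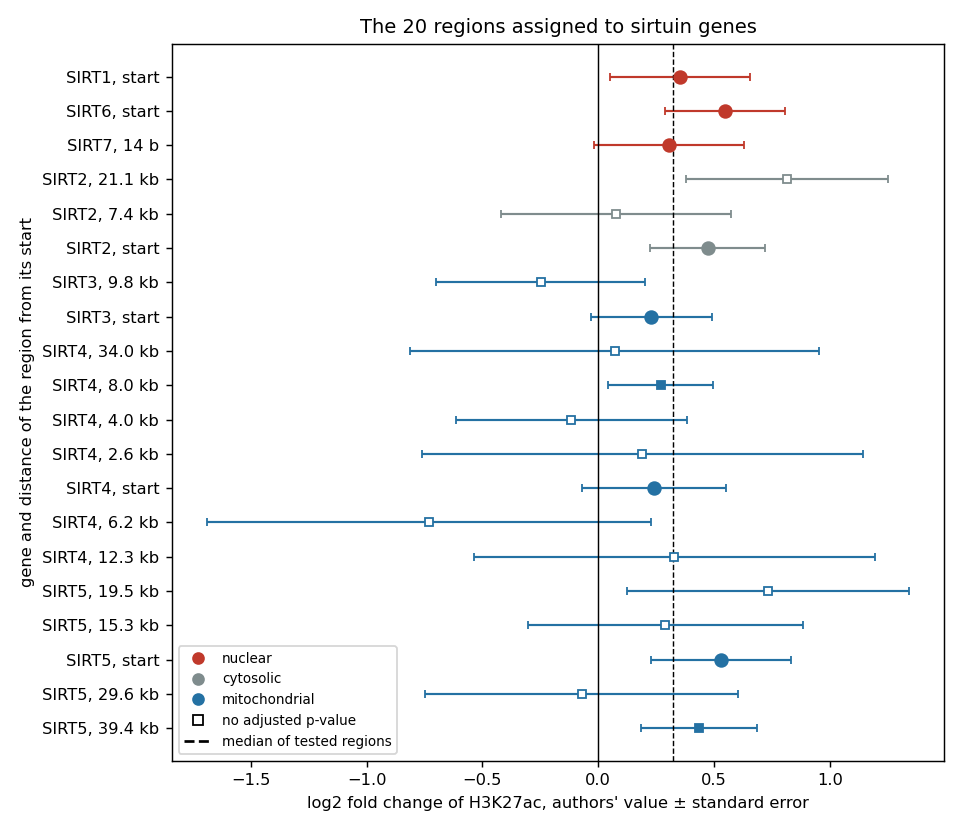
Log2 fold change of H3K27ac with its standard error (horizontal axis) for the 20 regions assigned to sirtuins in the authors' deposited table, listed by gene and by distance from the gene's start (vertical axis); circles are the region nearest to each start, squares the further regions, open symbols regions with no adjusted p-value, the dashed line the median of 0.32 over regions with an adjusted p-value. The 7 circles lie between 0.23 and 0.55 on both sides of the dashed line, and the open symbols have the widest bars.

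Among the nuclear members, SIRT6, which removes acetyl and long-chain fatty acyl groups and acts in DNA repair and glucose metabolism, had the highest fold change of the 7 regions near starts. Its region (chr19:4181273-4184536, 3263 bases) had a mean level of 91.4 in the authors' normalized units and a log2 fold change of 0.55 ± 0.26 (standard error, unadjusted p = 0.0351, DESeq2 adjusted p = 0.24) in the authors' deposited table. The 95% interval from that error, 0.04 to 1.06, was the only 1 of the 7 that lay wholly above 0, and it included the median of 0.32 of all tested regions. The same region is listed with ANKRD24, an ankyrin repeat gene whose RefSeq start lies 126 bases beyond that of SIRT6, so its signal cannot be given to 1 gene.

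SIRT1, the deacetylase of p53, FOXO factors and PGC-1alpha, had 1 region (chr10:67883999-67887130, 3131 bases) in the authors' deposited table, over its only RefSeq start at 67884656. It had a mean level of 64.7 and a log2 fold change of 0.35 ± 0.30 (standard error, adjusted p = 0.48) in the authors' deposited table, a value 0.028 above the median of tested regions. The nearest other region of the table lay 33493 bases away. At 20.7 units per kb of width, its H3K27ac was the least dense of the 7 regions near starts.

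SIRT7, a nucleolar deacetylase that acts on histone H3 and on ribosomal DNA transcription, had the narrowest and lowest of these regions (chr17:81916865-81918181, 1316 bases, mean level 38.6) in the authors' deposited table. Its log2 fold change there was 0.30 ± 0.32 (standard error, adjusted p = 0.56). The region was one-sided: 99.6% of it lay inside the RefSeq gene, it ended 5 bases beyond the gene's upper end, where the authors' distance places the start, and the next region, at MAFG, began 5.46 kb further on. The other 6 regions near starts extended to both sides of a RefSeq start.

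SIRT2, the cytosolic member known as a tubulin deacetylase, shared its start region (chr19:38898048-38901344, 3296 bases) with NFKBIB, an inhibitor of NF-kappaB, in the authors' deposited table. That region had a mean level of 77.6 and a log2 fold change of 0.47 ± 0.25 (standard error, unadjusted p = 0.0571, adjusted p = 0.28) in the authors' deposited table. The start the authors' distances place for SIRT2 lay 245 bases from that of RefSeq, within the same region. A second region, 21.1 kb away at the far end of SIRT2 (chr19:38877848-38878792), had the most positive value of all 20 regions in the authors' deposited table, 0.81 ± 0.43, at a mean level of 17.0 with no adjusted p-value. It overlaps the start of RINL, and the table lists it with that gene too. The third, inside the gene, had 0.08 ± 0.50 in the authors' deposited table.

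Among the mitochondrial members, SIRT5, which removes succinyl, malonyl and glutaryl groups, had a start region (chr6:13573353-13575376, 2023 bases) with a mean level of 60.3 and a log2 fold change of 0.53 ± 0.30 (standard error, adjusted p = 0.32) in the authors' deposited table. At 29.8 units per kb it was the densest of the 7 regions near starts. It also overlaps LOC105374937, a noncoding RNA gene, and how its level divides between SIRT5 and this gene was not tested. Another of the 5 SIRT5 regions (chr6:13613999-13617807, mean level 77.8) lay 39.4 kb away, at the far end of SIRT5. It covers the start of NOL7, a nucleolar protein gene, and had 0.44 ± 0.25 in the authors' deposited table. The other 3 had mean levels from 5.98 to 8.10 and values of 0.73 ± 0.61, 0.29 ± 0.59 and -0.07 ± 0.68 in the authors' deposited table, each with a 95% interval that included 0.

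SIRT3, the main mitochondrial deacetylase, which activates enzymes of fatty acid oxidation, shared its start region (chr11:235238-238696, 3458 bases) with PSMD13, a proteasome subunit gene. The region had a mean level of 85.1 and the lowest fold change of the 7 near starts, 0.23 ± 0.26 (standard error, adjusted p = 0.59), in the authors' deposited table. Of all start regions, 23.0% had a lower value. For SIRT3 too the authors' distances place a start apart from that of RefSeq, at 236355 against 236931, within the same region. A weaker region inside the gene (chr11:225719-226603, mean level 15.5) had -0.25 ± 0.45 in the authors' deposited table.

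SIRT4, which acts on glutamate dehydrogenase and malonyl-CoA decarboxylase, had 7 regions, more than any other sirtuin, against a median of 3 over all 17301 genes listed. The region over the start the authors used (chr12:120301675-120303395, 1720 bases) had a mean level of 43.6 and a log2 fold change of 0.24 ± 0.31 (standard error, adjusted p = 0.63) in the authors' deposited table. The region with the highest level of all 20 was another, 8.05 kb before that start (chr12:120289849-120294273, 4424 bases). It had a mean level of 149.5, or 33.8 units per kb against 25.3 at the authors' start, and a log2 fold change of 0.27 ± 0.23 (adjusted p = 0.47) in the authors' deposited table.

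That upstream region covers a second RefSeq start of SIRT4 at 120292189, which lies 10132 bases before the first, and the CRE sequence printed for it. It also covers RNU4-2 and RNU4-1, genes of the U4 small nuclear RNA of the spliceosome. The table lists it for SIRT4 alone, and how its level divides between SIRT4 and the U4 genes was not tested. U4 genes have near-identical copies, and how reads of such copies were counted is not given in the sources used here, so its level is uncertain. The other 5 SIRT4 regions had mean levels from 3.12 to 12.8 and fold changes from -0.73 ± 0.96 to 0.33 ± 0.87 in the authors' deposited table.

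**Figure D2:**
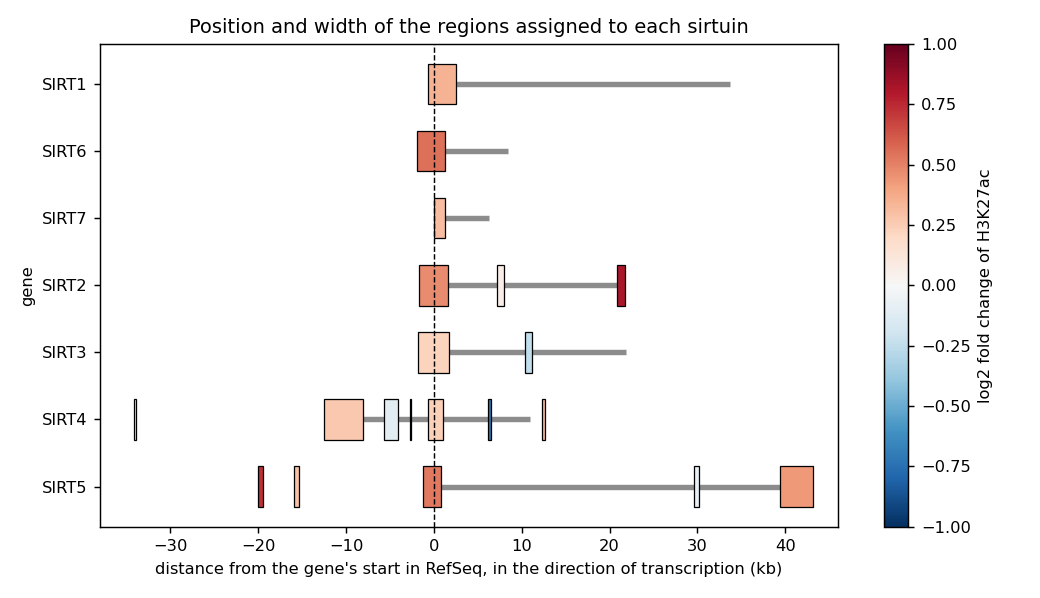
Position and width of the regions assigned to each sirtuin, in kb from the gene's RefSeq start along the direction of transcription (horizontal axis), for the 7 genes (vertical axis); grey lines are the RefSeq genes, the dashed line is the first base of the gene or, for SIRT4 and SIRT5, the later of 2 starts, and colour gives the authors' log2 fold change from the deposited table. The 3 nuclear genes in the top rows have 1 region each, and the SIRT7 region stands on 1 side of the start.

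The nuclear and mitochondrial members differed in how many regions were assigned to them. SIRT1, SIRT6 and SIRT7 had 1 region each, as did 24.8% of all genes in the authors' deposited table, and SIRT3, SIRT4 and SIRT5 had 2, 7 and 5. Regions were assigned by nearness to a gene, so these counts also reflect the spacing of the neighbouring genes. Gene length differed too. In RefSeq, SIRT7, SIRT6 and SIRT1 are 6238, 8455 and 33735 bases long, and SIRT4, SIRT3 and SIRT5 are 21470, 21902 and 40885. Whether length plays a part in the counts was not tested. Of the 11 further regions of the mitochondrial genes, 9 had a mean level too low for an adjusted p-value. The same held for 54671 of all 91107 regions. Of the 11, 7 were positive in the authors' deposited table. The positive share was 73.7% over all regions and 64.6% over those without an adjusted p-value.

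The fold changes of the 2 groups overlapped. In the authors' deposited table the nuclear members had 0.30, 0.35 and 0.55 near their starts, and the mitochondrial members had 0.23, 0.24 and 0.53. The mean log2 fold change, computed from the authors' deposited table, was 0.40 for the nuclear and 0.33 for the mitochondrial members, a difference of 0.068 with a standard error of 0.24. The 95% interval of the difference, with errors taken as independent between regions, ran from -0.40 to 0.54, a ratio of 0.757 to 1.45. Without SIRT6 the difference was -0.0046, and without the shared regions of SIRT6 and SIRT3 it was -0.057. It was 0.016 without SIRT3, 0.022 without SIRT4, 0.093 without SIRT1, 0.117 without SIRT7 and 0.167 without SIRT5. Each of these values was smaller than its standard error, so no direction can be read from this difference. With all regions of each gene in place of 1 it was 0.26, with an interval from -0.18 to 0.71. There the nuclear mean stayed at 0.40, because those genes have no further regions, and the mitochondrial mean fell to 0.14. With SIRT6 also left out, this difference was 0.19, with an interval from -0.33 to 0.71. Both values set nuclear regions near starts against mitochondrial regions that are mostly weak and further from starts. An interval that includes 0 does not show that the groups were alike.

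Among all 21 pairs of the 7 regions near starts, each difference in log2 fold change was smaller than its own standard error, computed from the authors' deposited table. The largest was between SIRT6 and SIRT3, 0.32 ± 0.37, with a 95% interval from -0.40 to 1.04. In descending order the genes were SIRT6, SIRT5, SIRT2, SIRT1, SIRT7, SIRT4 and SIRT3, and no neighbours in this order differed beyond their errors. The first 4 lay above the median of 0.32 over tested regions in the authors' deposited table and the last 3 below it, and the 95% intervals of all 7 included that median.

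**Figure D3:**
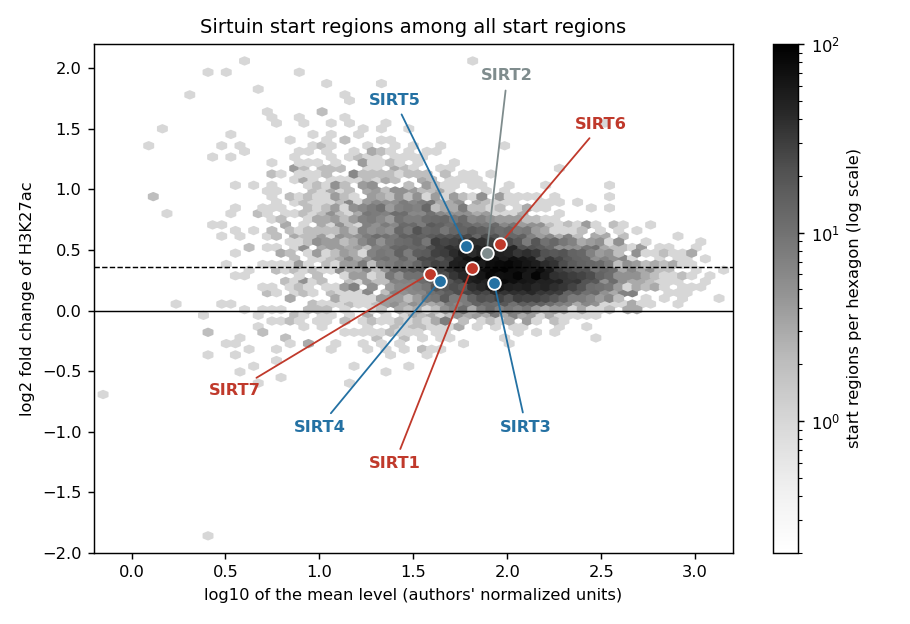
Log2 fold change (vertical axis) against the log10 of the mean level (horizontal axis) in the authors' deposited table for the 10642 regions at gene starts, as grey hexagons, and for the region of each sirtuin nearest to its start, as points (red nuclear, grey cytosolic, blue mitochondrial); the dashed line is the median of 0.36 at starts. All 7 points lie inside the dense part of the cloud, 3 above the line and 4 below it.

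Set beside start regions of like level, the first 4 genes kept their order. With start regions divided into 10 equal bins by level, the median log2 fold change from the authors' deposited table was 0.49 in bin 2, which holds SIRT7, and 0.34 in bin 6, which holds SIRT6 and SIRT3. Relative to the median of its own bin, SIRT6 stood at 0.21, SIRT5 at 0.14 and SIRT2 at 0.11. SIRT1 stood at -0.040, SIRT3 at -0.11, SIRT4 at -0.17 and SIRT7 at -0.18. These are descriptions of position, each smaller than the region's standard error.

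In density of H3K27ac, mean level per kb of region, the 7 regions near starts ran from 20.7 units for SIRT1 to 29.8 for SIRT5, computed from the authors' deposited table. SIRT7 had 29.4, SIRT6 28.0, SIRT4 25.3, SIRT3 24.6 and SIRT2 23.6, beside a median of 25.3 over all start regions. The density of SIRT1 exceeded that of 26.9% of start regions and the density of SIRT5 that of 70.7%. SIRT4, with the promoter poorest in G and C, had a density at the median. The densities are means over the libraries of both groups with no spread per library, so no order among them can be tested.

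The genes on either side were read in the same way, because a change over a wider stretch would include them. Only the nearest start region of another gene on either side was taken, where it lay within 50 kb of the sirtuin's own. Genes sharing the region at a sirtuin's start were left out. This gave 9 start regions, with none beside SIRT1 or SIRT4. All 9 were positive in the authors' deposited table, beside 97.7% of all start regions. Their log2 fold changes ran from 0.16 at ALYREF, an mRNA export factor beside SIRT7, to 0.83 at CREB3L3. The latter is a liver transcription factor gene beside SIRT6. The median of the 9 was 0.50, beside 0.36 over all start regions. None was called, beside 0.860% of the start regions that have an adjusted p-value. CREB3L3 and RINL, at mean levels of 16.6 and 17.0, had no adjusted p-value and so could not be called. Of the 9, 1 had an unadjusted p-value under 0.05, at ATHL1 beside SIRT3. Among start regions with an adjusted p-value, 19.2% were positive and under 0.05 in the authors' deposited table. The neighbours of SIRT7 had 0.16 ± 0.24 at ALYREF and 0.50 ± 0.26 at MAFG, and those of SIRT3 had 0.30 ± 0.24 at BET1L and 0.72 ± 0.36 at ATHL1. EBI3 beside SIRT6 had 0.60, MRPS12 beside SIRT2 0.29, and RINL and NOL7 are the genes of the shared regions given above.

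Genes that supply NAD+, use it in competition with sirtuins or encode sirtuin substrates were taken from 5 lists with 46 genes. Start regions were found for 38 of them, all positive and none called in the authors' deposited table, beside 97.7% positive among all start regions and 0.860% called among those tested. The supply list had 47 regions for 11 of 12 genes and a median log2 fold change of 0.34, beside 0.28 over all regions of the authors' deposited table. It includes NADK and NADK2, kinases that use NAD+ to make NADP+, and both had a region with an unadjusted p-value under 0.05. An adjusted p-value was given for 16 of the 47, of which 1 was called, beside 1.67% of all tested regions, and 8 of the 47 had an unadjusted p-value under 0.05, beside 8.99% of all regions. The call lay 58.7 kb from NAMPT, the rate-limiting enzyme of NAD+ salvage from nicotinamide (chr7:106343931-106347941, 0.96 ± 0.27, DESeq2 adjusted p = 0.0298). NAMPT had 17 regions, 13 of them positive, a share near the 73.7% of all regions. Of the 17, 4 had an unadjusted p-value under 0.05, beside 8.99% of all regions. The start region of NAMPT had 0.62 ± 0.23 (adjusted p = 0.14) in the authors' deposited table. After centring on the median of tested regions the call was lost, with an adjusted p of 0.63, as for most regions, since 0.124% of tested regions passed after centring.

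Among NAD+ consumers and genes of nicotinamide clearance, 0 of 9 tested regions were called, beside 1.67% of all tested regions. An unadjusted p-value under 0.05 was found for 1 of 28 regions, beside 8.99% of all regions. This list of 6 genes had a median of 0.14 in the authors' deposited table. Its start regions ran from 0.12 at PARP2, a poly(ADP-ribose) polymerase of DNA repair, to 0.37 at SARM1, an NAD+ hydrolase of axon degeneration. Both sirtuin regulators had a region at their start in the authors' deposited table. The value was 0.33 at RPS19BP1, an activator of SIRT1, and 0.04 at CCAR2, its inhibitor. Of their 6 regions, 4 were tested and 0 were called, beside 1.67% of all tested regions. An unadjusted p-value under 0.05 was found for 0 of the 6, beside 8.99% of all regions.

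Of 101 regions beside 11 nuclear and cytosolic substrates, 42 had an adjusted p-value and 1 was called in the authors' deposited table, again beside 1.67% of all tested regions. Their median was 0.26, and 8 of the 101 had an unadjusted p-value under 0.05, near the 8.99% of all regions. The call lay 14.0 kb from the start of ACSS2, the nuclear and cytosolic acetyl-CoA synthetase that SIRT1 deacetylates (adjusted p = 0.0442, or 0.67 after centring). For the mitochondrial substrates, 0 of the 21 tested regions were called, beside 1.67% of all tested regions. Of their 46 regions, 6 had an unadjusted p-value under 0.05, beside 8.99% of all regions. The 15 mitochondrial substrates had a median of 0.32 in the authors' deposited table. Their start regions ran from 0.21 ± 0.32 at IDH2, a mitochondrial isocitrate dehydrogenase that SIRT3 activates, to 1.35 ± 0.58 at ACADL, a long-chain acyl-CoA dehydrogenase, which had a mean level of 10.4 and no adjusted p-value.

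**Figure D4:**
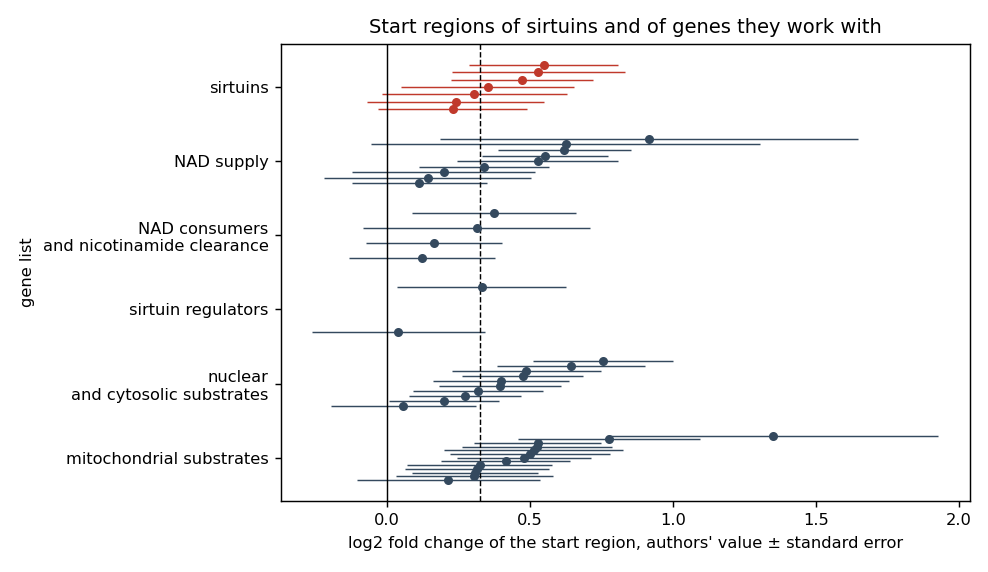
Log2 fold change with standard error (horizontal axis) of 1 start region per gene in the authors' deposited table, for the 7 sirtuins (red) and 5 lists of genes they work with (dark points, vertical axis); the dashed line is the median of 0.32 over tested regions. All 7 sirtuins and all 38 other genes lie above 0, and the sirtuins span 0.23 to 0.55 within the range of the lists.

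Of markers of the melanocyte lineage, SOX10, MITF, PMEL and S100B had a region at their start in the authors' deposited table, at mean levels of 774, 98.4, 269 and 55.2, and MLANA, TYR, DCT and TYRP1 had none. Of markers of other cells, EPCAM had one over its start, at 50.5, and KRT5, KRT14, PTPRC, CD3E and PECAM1 had none there. The nearest regions of KRT5, KRT14 and PECAM1 nonetheless lay 743, 881 and 181 bases from the start, at mean levels of 55.8, 22.8 and 3.74, and PECAM1 had another 2.36 kb away at 164. Those of CD3E and PTPRC lay 2.41 and 17.8 kb away, and those of MLANA, TYR, DCT and TYRP1 between 4.14 and 43.2 kb. The depth of each library is unknown.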

How the data were processed

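The series holds H3K27ac chromatin immunoprecipitation sequencing of A375 cells, with 2 vehicle and 2 octanoate libraries grouped by the treatment in the labels. The only file is the authors' table of 1 comparison, with column names of DESeq2 results. The submitters' processing notes name Trim Galore, cutadapt, FastQC, Bowtie2, Picard, MACS2, featureCounts, DESeq2, bedtools 2.29.1 and the build hg38, without their settings. The mean level is a signal normalized by the authors, with the scaling not given in the sources used here. Fold changes and their standard errors are on the log2 scale, per the file headers, which name no numerator. The deposited score in the statistic column was the ratio of the fold change to its error, to within 3.38e-14. The deposited p-value was the normal tail of that score on both sides, and adjusted values followed Benjamini-Hochberg over 36436 regions. A deposited adjusted p-value of 1 was read as not computed.

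Lines of a region listed for several genes were merged. Calls were regions with an adjusted p-value under 0.05. The planned fallback to the authors' comparison was used, because no value per library was given, so libraries could not be refitted, left out or paired. Each gene was represented by its region of distance 0 with the highest level, or else the nearest. Intervals at 95% came from the authors' standard errors and are no test between libraries. In centring, the median of 0.32 was subtracted and p-values were readjusted over the same regions. This step was tried on simulated data with changes larger than those of the sirtuin regions, so it was not tested at their size. Genes named were all sirtuins, genes listed with their regions and the nearest start region on either side within 50 kb. Of each list, the called members or the highest and lowest start regions were named, with NADK and NADK2 besides. CCAR2 was found under an older symbol. The members and lists were chosen with earlier results of these data known. Promoter sequences are from RefSeq. Columns of single libraries left out numbered 0. Python 3.11.15, numpy 2.4.6, pandas 2.3.3, scipy 1.17.1 and matplotlib 3.10.9 were used.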

Additional observations from a re-analysis of the deposited data

How the results depend on the processing

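The count of called sirtuin regions was 0 as deposited. It was also 0 at an adjusted p-value under 0.01, with adjustment over all distinct regions, after centring, with the size of the log2 change required to reach 1 and when table lines were counted, and it was 1 at an unadjusted p-value under 0.05. Relative to the median of tested regions, the fold changes near the starts of SIRT3, SIRT4 and SIRT7 turned negative, at -0.095, -0.083 and -0.019. Relative to start regions of the same level, those of SIRT1, SIRT3, SIRT4 and SIRT7 did, at -0.040, -0.109, -0.171 and -0.185. These reversals follow from subtracting a positive median, and those of SIRT2, SIRT5 and SIRT6 stayed positive in both. The median over the 20 regions, 0.28, ran from 0.24 to 0.41 over 13 alternatives. With all regions of each gene, where only the mitochondrial genes gained regions, the difference between nuclear and mitochondrial members was 0.265. Over 12 alternatives it ran from -0.057 to that value, and each interval included 0. Of these, the SIRT4 region over its second start (0.059), the leaving out of shared regions and all regions without SIRT6 (0.192) were added after the data were seen. No paired analysis was possible because no library has a column of its own, and for the same reason leaving out each library was not run.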
